A study of Mus musculus with 24 samples.

Results

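The windows described here are short stretches of the mouse genome that are poor in CpG sites. They gave at least a few reads in immunoprecipitates of DNA 5-methylcytosine (5mC) from wild-type (WT) mouse embryonic stem (mES) cells. They gave more signal in *Tet2*-KO mES cells. Whether the WT reads exceeded background was not tested. A window was 100 bp long. They were chosen by their measured values in the comparison of *Tet2* KO with WT. A window was a member if it held 5 CpG sites or fewer, had more than 3 reads in at least 1 WT library and fewer than 600 in the 3 WT libraries together, had a higher mean signal in *Tet2* KO, and lay on 1 of 16 chromosomes (2 to 11, 13, 14 and 16 to 19). There were 877 such windows among 14279 listed for the comparison and 2414 listed as higher in *Tet2* KO, of which 1923 were on these chromosomes. Because these values chose the windows, their difference between *Tet2* KO and WT is described without a test.

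Methylation of cytosine in CpG dinucleotides is the main covalent mark of mammalian DNA and is copied to the new strand after replication. TET2 is a dioxygenase that oxidizes 5mC, a first step towards its removal, and it also acts on 5-methylcytosine in RNA. Most of the mouse genome is poor in CpG, since methylated cytosines are lost by deamination over evolution, and CpG-poor DNA in gene bodies and between genes is generally methylated, whereas CpG islands at gene starts are mostly kept free of the mark. Repeats derived from retrotransposons and tandem repeats are also common targets of methylation.

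5mC was measured by MeDIP-seq, in which an antibody pulls down methylated fragments before sequencing. The comparison was between WT and *Tet2*-KO mES cells, both transfected with the control siRNA siNC, with 3 immunoprecipitated (IP) libraries each. *Tet2*-KO cells transfected with siRNA against *Nsun2* (siNsun2), which encodes an RNA m5C methyltransferase, gave 3 IP libraries not used to choose windows. So did *Pspc1*-KO cells and the WT cells set against them, with 3 IP libraries each, for which the labels name no siRNA. The data of the latter WT cells are headed Tet2WT. Cells were kept in serum with LIF and 2 kinase inhibitors, and the WT and *Tet2*-KO cells of the *Tet2* experiment came from another laboratory. All members were windows of a table that lists only windows past the study's threshold. No input library of the *Tet2* experiment was analysed here, so that a change in 5mC and a change in the number of DNA copies cannot be told apart. Figure legends of the paper say that its genome-wide data combine 3 biological replicates. Nothing in the labels says that replicates were separate cultures, so p-values measure only the spread between these samples, which may be technical. The 6 libraries behind the members held 8923000 to 15353000 reads, rounded to 1000. Replicates 2 and 3 did not differ beyond the sampling noise (chi-square per degree of freedom 1.00 in WT and 0.969 in *Tet2* KO, where 1 is the noise), whereas the other pairs did (1.26 to 1.51). They were averaged and counted as 1 sample, so means are given as mean ± SD over 2 samples. All 5 listed windows within the *Tet2* gene itself were lower in the KO, and none was a member.

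The sequences below show what a member looks like. They are the plus strand of mm10, 5′ to 3′, with CpG sites in capitals (a CpG that crosses the end of a window shows a single capital). The first 8 are windows whose middle 32 bases occur once in the reference, called single copy here, from the longest regions, from exons and from the largest and smallest ratios. The first has the largest ratio of *Tet2* KO to WT among single-copy members and the last the smallest.
Catsperg1, chr7:29213001-29213100: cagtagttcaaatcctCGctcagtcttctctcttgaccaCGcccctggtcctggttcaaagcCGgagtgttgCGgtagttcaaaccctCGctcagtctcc
A2ml1, chr6:128561601-128561700: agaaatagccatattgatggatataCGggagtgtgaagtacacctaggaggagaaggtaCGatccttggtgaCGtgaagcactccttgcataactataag
Map2k6, chr11:110411501-110411600: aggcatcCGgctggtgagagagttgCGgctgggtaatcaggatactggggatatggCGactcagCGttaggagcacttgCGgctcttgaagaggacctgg
Fto, chr8:91351201-91351300: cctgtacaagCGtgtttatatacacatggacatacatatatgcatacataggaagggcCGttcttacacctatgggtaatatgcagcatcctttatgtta
Jak3, chr8:71686801-71686900: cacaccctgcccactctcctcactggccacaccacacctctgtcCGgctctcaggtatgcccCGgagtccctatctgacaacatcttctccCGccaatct
Rest, chr5:77282701-77282800: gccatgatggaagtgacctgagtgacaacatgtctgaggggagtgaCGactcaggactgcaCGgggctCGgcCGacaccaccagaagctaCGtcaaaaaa
Akap12, chr10:4354101-4354200: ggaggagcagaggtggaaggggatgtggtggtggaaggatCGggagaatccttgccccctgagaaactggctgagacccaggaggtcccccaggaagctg
outside genes, chr8:5530101-5530200: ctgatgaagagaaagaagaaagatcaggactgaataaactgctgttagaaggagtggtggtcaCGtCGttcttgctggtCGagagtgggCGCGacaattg

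The next 4 windows show repeated sequence, which more members held than not. In the windows of *Akap9* and *Washc2* the sequence repeats itself, and the other windows are from the 2 sets of members with the most shared sequence.
Akap9, chr5:4053401-4053500: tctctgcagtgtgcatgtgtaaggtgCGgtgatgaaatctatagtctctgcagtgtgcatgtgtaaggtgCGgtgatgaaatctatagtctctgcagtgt
Washc2, chr6:116251801-116251900: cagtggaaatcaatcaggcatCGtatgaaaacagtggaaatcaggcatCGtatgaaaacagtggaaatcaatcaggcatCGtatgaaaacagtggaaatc
largest set, chr13:75862501-75862600: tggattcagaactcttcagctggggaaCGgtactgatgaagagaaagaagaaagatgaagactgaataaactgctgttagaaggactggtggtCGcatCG
next set, chr5:144671201-144671300: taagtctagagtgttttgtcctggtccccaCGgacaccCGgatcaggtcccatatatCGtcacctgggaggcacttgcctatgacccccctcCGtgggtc

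The WT signal at these windows was mostly low, and the *Tet2*-KO signal was typically several times as high. The signal is given as RPKM, the reads of a window scaled to its length and to the library size. In WT libraries 1, 2 and 3 the median over the 877 windows was 8.67, 8.28 and 9.12 RPKM. In *Tet2*-KO libraries 1, 2 and 3 it was 35.9, 36.3 and 36.0 RPKM. The 3 libraries of a group were thus close to each other, and the groups were far apart. Together the members held 21138, 23970 and 28533 reads in the WT libraries and 42639, 68877 and 69387 in the KO libraries, although KO library 1 was the shallowest of the 6. The median ratio of KO to WT means was 4.05, and the middle 50% of windows lay between 2.45 and 5.98. In 446 windows (50.9%) the ratio was 4 or more, in 111 (12.7%) it was under 2 and in 12 it was under 1.5. These values rest on scaling to the library totals. With TMM factors or DESeq2 size factors, both set by listed windows that were mostly lower in KO, the median log2 difference was 3.89 or 3.88 in place of 2.01.

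At 877 of 877 members every *Tet2*-KO library lay above every WT library, beside 16.9% of all listed windows. Every listed window higher in KO was apart in this way (2414 of 14279), so the choice of windows by this contrast fixed the members' count. The lowest KO library exceeded the highest WT library by a median factor of 2.62 and by at least 1.23. The median log2 difference between group means was 2.01 (with 0.1 RPKM added to both), and values ran from 0.45 to 5.26. The relative methylation score, a fraction that corrects for CpG number, was also higher in KO at all 877 windows, with a median of 0.413 in WT and 0.523 in *Tet2* KO. On this score every KO library lay above every WT library at 797 of the 877, and the libraries overlapped at the others. The share over all listed windows was not counted. The score comes from the same reads that chose the windows, so it is no separate evidence.

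**Figure D1:**
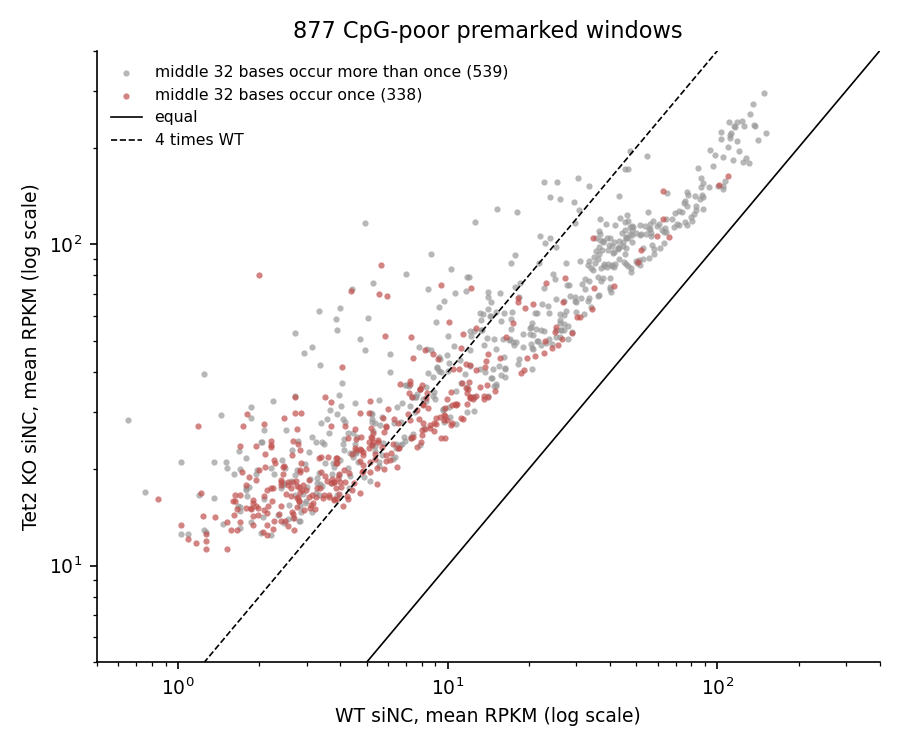
Mean RPKM of each of the 877 members in *Tet2*-KO siNC libraries (vertical, log scale) against WT siNC libraries (horizontal, log scale), with 1 point per window, in red where the middle 32 bases occur once in the reference (338 windows) and in grey where they occur more often. All points lie above the solid line of equal values (the dashed line marks 4 times WT), and the distance to it shrinks from left to right, where grey points prevail.

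The ratio followed the WT level. Windows with 10 WT reads or fewer over the 3 libraries (128 windows) had a median ratio of 9.08, those with over 10 to 20 reads 5.53, over 20 to 50 reads 4.01, over 50 to 100 reads 2.87, over 100 to 200 reads 2.29, and those with over 200 reads (102 windows) 1.77. The list holds only windows past a threshold of significance, and a window with few reads passes it only with a large ratio, so the order cannot be told apart from the way the list was made. The median member rested on 35 WT reads (95% exact Poisson interval 24.4 to 48.7) and 132 KO reads (110 to 157), and the shallowest on 4 WT reads (1.09 to 10.2). The reads carried no molecular identifiers, so these intervals cover counting error only. At 41 members at least 1 WT library had no read.

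The limits of the choice cut through a continuous range. Windows with 5 CpG sites (148, inside) had a median log2 difference of 1.97, and windows with 6 (97, outside) 1.71. Windows whose highest WT count was 4 (75, inside) had 3.03, and those at 3 (80, outside) 3.18. The 32 members with the most WT reads, just under the limit of 600, had 0.85, and the 8 windows just over it 0.54. On the chromosomes left out, 186 windows met the other conditions and had a median of 2.13.

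Within their range of CpG number, members lay towards the denser end. There were 155 members with 1 CpG site, 181 with 2, 223 with 3, 170 with 4 and 148 with 5. Reference windows with 1 to 5 sites on the same chromosomes were in 60.8% of cases windows with 1 site and in 1.58% windows with 5. Members per 10000 reference windows were therefore 0.267 for 1 site, 0.767 for 2, 2.50 for 3, 4.89 for 4 and 9.80 for 5, a 36.8-fold range. The same count for windows lower in *Tet2* KO had a 66.5-fold range. The size of the difference did not follow this order, with a median ratio of 4.48 for 1 site, 4.04 for 2, 3.91 for 3, 3.76 for 4 and 3.96 for 5. The 500 bases around a member held a median of 16 CpG sites. Median GC content was 51%, against 45% in the reference windows.

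**Figure D2:**
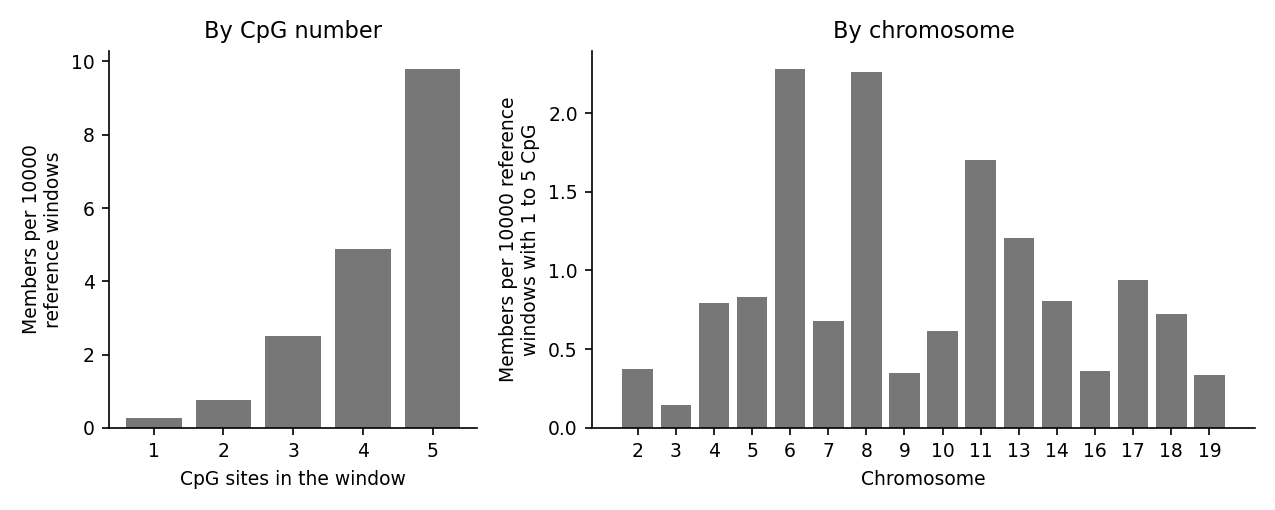
Members per 10000 reference windows with the same number of CpG sites (left) and per 10000 reference windows with 1 to 5 CpG sites on each chromosome (right). The count rises from 0.267 at 1 site to 9.80 at 5, and chromosomes 6, 8 and 11 stand above the others at 2.28, 2.258 and 1.70.

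Members were spread unevenly over the chromosomes. Chromosome 6 held 155, chromosome 8 held 140 and chromosome 11 held 104, in all 45.5% of members on chromosomes with 19.97% of the reference windows of this CpG range. Chromosomes 3 and 19 held 10 each. Among single-copy members the share on chromosomes 6, 8 and 11 was 44.7%, among the windows silent in WT (no WT count above 3) that were higher in KO it was 62.0%, and among CpG-poor windows lower in KO it was 23.9%. The median ratio was 4.32 on these 3 chromosomes and 3.76 elsewhere. The number of copies of each chromosome in these cells was not measured, and its part in these counts was not tested.

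Members stood mostly alone or in short runs. Merging windows that touched gave 514 regions, of which 306 were 1 window long, 116 were 2 and 92 were 3 or more, up to 800 bp. Of the 514 regions, 306 (59.5%) touched another listed window that was no member: 259 touched one with more than 5 CpG sites, 61 one that was silent in WT and 5 one with deeper WT coverage, some of them more than one kind. No region touched a window that was lower in *Tet2* KO, and 30 regions (5.84%) had one within 10 kb. Where the higher windows of all kinds were merged, members fell into 410 stretches of up to 3000 bp, and 162 of the stretches held a window with more than 5 sites.

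By annotation, 379 members (43.2%) lay outside genes, 374 (42.6%) in introns, 86 (9.81%) in exons and 38 (4.33%) within 1 kb of the start of a protein-coding transcript. The median distance to the nearest such start was 22279 bp. Members near starts had a median ratio of 6.51, intronic ones 4.46, exonic ones 3.53 and those outside genes 3.28. *Catsperg1* alone held 14 of the 38 members near starts, and without it their median ratio was 4.97. Of the silent-WT windows that were higher in KO, 11.1% lay within 1 kb of a start, and of the CpG-dense windows chosen by the same limits on WT reads 1.96%.

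Among the 410 stretches of higher windows that held a member, the longest was at the start of *Catsperg1*. This gene encodes an auxiliary subunit of the calcium channel of the sperm tail. The stretch was 3000 bp long and held 14 members in 3 regions, and 7 of the 14 members were single copy. Averaged over the 14 members, the WT libraries had 4.46, 4.19 and 4.56 RPKM and the *Tet2*-KO libraries 38.6, 44.9 and 49.4. All KO libraries were several times above all WT libraries. The WT mean was 4.42 ± 0.0599 and the KO mean 42.9 ± 6.04 (SD, n = 2), with a median ratio over windows of 11.6. The middle of the stretch was a run of windows that missed the WT limit or had more CpG sites, with WT means from 0 to 1.54 RPKM and KO means of up to 75.2. High KO values thus ran on across members and non-members. The window with the largest ratio of all single-copy members (40.1) was in this stretch, at chr7:29213001-29213100, 882 bp from a start. Its WT libraries had 0.87, 3.01 and 3.26 RPKM, and its KO libraries 81.8, 78.2 and 79.0. Another, at chr7:29211601-29211700, came next with a ratio of 23.0.

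A second cluster of higher windows lay in *Jak3*, the tyrosine kinase that signals from cytokine receptors with the common gamma chain. The cluster formed 2 runs, with a window between them that was not listed. Its 2 longest single-copy regions, chr8:71686501-71686900 and chr8:71687101-71687500, covered introns and exons. In the first, WT libraries had 7.37, 6.59 and 8.96 RPKM and KO libraries 40.6, 43.5 and 36.7, a ratio of 5.33. In the second, WT libraries had 8.89, 3.95 and 6.03 RPKM and KO libraries 29.4, 29.7 and 22.05, a ratio of 3.98. Among the listed windows of this cluster the KO signal was highest in a window between these regions that held 8 CpG sites (62.6 ± 0.283 RPKM, SD, n = 2). The WT signal there, 12.99 ± 1.20 RPKM, was within the spread of the members on either side (12.7 ± 0.407 and 12.7 ± 2.90).

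**Figure D3:**
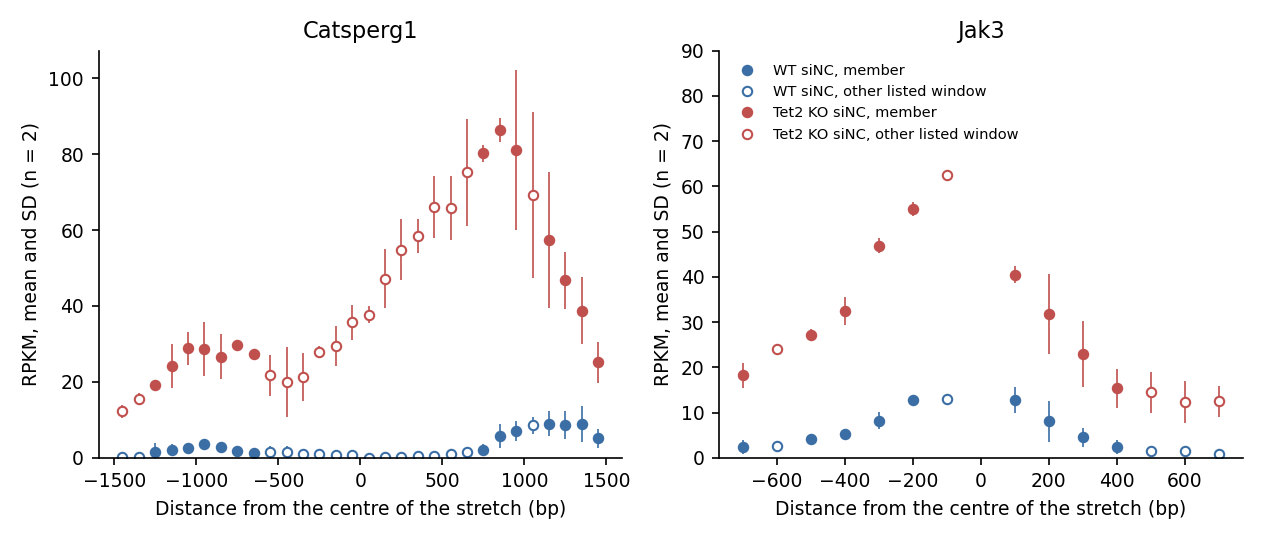
RPKM (mean and SD over 2 samples) of the listed windows at *Catsperg1* and *Jak3* by distance from the centre of the plotted span in bp. WT siNC is in blue and *Tet2*-KO siNC in red, with members filled and other listed windows open. A window near the centre of the *Jak3* span was not listed. In *Catsperg1* the WT signal is near 0 in the middle while the KO signal is high there, and in *Jak3* the KO signal peaks at 62.6 RPKM near the middle, where the WT signal is also at its highest values.

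The other long single-copy regions had 3 to 5 windows and ratios from 2.75 to 11.5. The largest of these ratios was at chr13:13862201-13862700, with a window in an exon of the annotated gene *Gm47882*, where WT libraries had 1.73, 2.41 and 3.13 RPKM and KO libraries 24.4, 27.3 and 27.4. In an intron of *Map2k6*, a kinase that activates p38, chr11:110411301-110411800 had 1.73, 3.01 and 4.30 RPKM in WT and 18.6, 17.2 and 20.03 in KO, a ratio of 6.91. In an intron of *Fto*, which encodes an RNA demethylase, chr8:91351201-91351600 had 3.91, 2.45 and 4.40 RPKM in WT and 21.6, 23.6 and 21.5 in KO, a ratio of 6.03. Groups were apart in all of these. *Fto* held 12 members in 6 regions in all, all of them intronic, with a median ratio of 6.56.

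Outside genes, chr11:52536801-52537300 had 6.87 ± 2.11 RPKM in WT and 33.8 ± 3.55 in KO (SD, n = 2 each). In an intron of *Cfap77*, a gene for a ciliary protein, chr2:29046201-29046600 had 8.02 ± 1.83 and 26.6 ± 1.564. At *Sh3tc1*, chr5:35709401-35709800 had 8.93 ± 2.39 and 28.5 ± 4.81. The ratios were 4.92, 3.32 and 3.20, and in each of these regions all KO libraries lay above all WT libraries.

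Among the exonic single-copy regions of 3 windows, those with the largest summed difference lay in *Rest*, *Arid5b* and *Akap12*. *Rest*, the repressor that keeps neuronal genes silent in non-neuronal cells, had 3 exonic members at chr5:77282601-77282900. Its WT libraries had 7.81, 5.52 and 11.5 RPKM and its KO libraries 29.9, 25.1 and 25.9, a ratio of 3.39. *Arid5b*, a DNA-binding protein with an ARID domain, had at chr10:68097801-68098100 4.34, 4.26 and 4.78 RPKM in WT and 24.7, 18.5 and 23.0 in KO, a ratio of 5.13. *Akap12*, a scaffold that anchors protein kinase A, had at chr10:4354101-4354400 10.4, 10.3 and 8.90 RPKM in WT and 28.4, 26.1 and 27.0 in KO, a ratio of 2.75. In an exon of *A2ml1*, a protease inhibitor, a single window (chr6:128561601-128561700) had 0, 0.75 and 2.61 RPKM in WT and 19.05, 12.1 and 14.1 in KO. That WT value came from 5 reads in all.

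**Figure D4:**
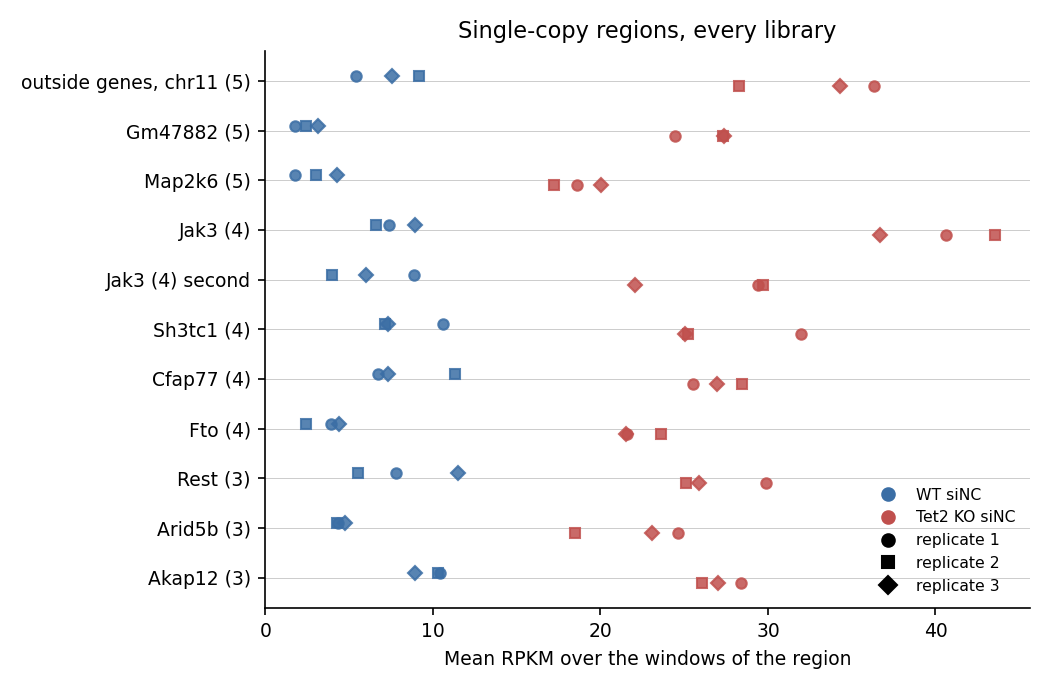
Mean RPKM over the windows of the 11 named long or exonic single-copy regions, with 1 symbol per library (circle, square and diamond for replicates 1, 2 and 3), WT siNC in blue and *Tet2*-KO siNC in red, and the number of windows in brackets. In each of them the 3 red symbols lie to the right of the 3 blue ones.

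At the other end, the 3 smallest ratios among single-copy members belonged to windows with a strong WT signal. The window chr8:5530101-5530200, outside genes, had 118, 100.9 and 103 RPKM in WT and 155, 174 and 170 in KO, a ratio of 1.49. A window in an intron of *Arhgap12* on chromosome 18 had 102 ± 15.6 and 153 ± 8.60 RPKM (SD, n = 2), a ratio of 1.503. A window in an exon of *Evpl*, which encodes envoplakin, had 66.3 ± 10.6 and 105 ± 2.96 RPKM, a ratio of 1.59. The first of these held at least 24 bases in common with the largest set of members with shared sequence, described next, although its own middle bases occur once.

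More than 1 in 2 members were repeated sequence. The middle 32 bases occurred once in the reference for 338 members (38.5%), 2 to 10 times for 137, 11 to 100 times for 282 and more often for 120. Of the members, 48.3% were at least 50% repeat-masked, against 25.7% of the reference windows with 1 to 5 CpG sites. The single-copy share was 19.3% among the CpG-dense windows, 66.4% among the silent-WT windows and 38.0% among the CpG-poor windows lower in KO. Reads of a repeated window can come from any of its copies, so its value is that of a family rather than of the place. Single-copy members had a median of 4.74 RPKM in WT and 23.5 in KO, a ratio of 4.81, and those with 11 to 100 copies 26.2 and 74.3, a ratio of 2.70.

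Members also shared sequence with each other. When members with at least 24 identical bases on either strand were joined, 499 of the 877 (56.9%) fell into 58 sets. The largest held 148 windows in 89 regions on 10 chromosomes, all 148 repeat-masked, with a median of 66.5 copies in the reference. Its median was 17.1 RPKM in WT and 60.4 in KO, with ratios from 1.37 to 43.4. The next set held 75 windows on 12 chromosomes (38.1 RPKM in WT and 96.2 in KO) and the one after it 25 windows on 11 chromosomes (40.9 and 95.3). All 25 windows of the latter lay within 1 kb of a window of the former. All 25 of them, but 15 of the 75, were repeat-masked. The 378 members in no set had 4.74 RPKM in WT and 23.4 in KO.

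Some genes held many members in local tandem repeats. *Akap9*, a scaffold of the centrosome and Golgi, held 15 intronic members within 2000 bp, 10 of them tandem repeats (at least 80% of bases equal to the base a fixed distance on) with a median period of 44 bases. The printed window repeats exactly at 44 bases. WT libraries had 16.4, 19.02 and 21.97 RPKM on average over these windows and KO libraries 81.0, 100.9 and 93.0, without overlap. *Washc2*, a subunit of the WASH complex, held 8 members in 1 intronic region, 7 of them tandem repeats. WT libraries had 8.35, 12.3 and 9.45 RPKM there and KO libraries 58.3, 86.3 and 87.0. *Mctp1*, which encodes a membrane protein with C2 domains, held 8 members in 1 intronic region, 6 of them tandem repeats with a period of 44 bases, at a far higher WT level, with 103, 96.5 and 108 RPKM in WT and 204, 195 and 188 in KO. In all, 63 members (7.18%) were tandem repeats by this measure, beside 7.14% of the 4215 other listed windows of the same chromosomes and CpG range.

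Among the 10 genes with the most member regions, *Gm42031*, a long non-coding RNA gene, came first with 9 regions and 13 windows (11.8 ± 2.56 RPKM in WT and 42.2 ± 0.853 in KO, SD, n = 2). *B230303A05Rik*, an annotated pseudogene, followed with 7 regions (6.85 ± 0.757 and 31.6 ± 0.0939). The kinase-like gene *Ulk4* held 7 intronic members in 6 regions, each with a single CpG site and each with the motif CAGCAGG (4.63 ± 0.460 and 21.5 ± 3.73 RPKM). *Pik3c2a*, a phosphoinositide kinase, held 5 regions (KO libraries 80.2, 70.5 and 81.0 RPKM, and WT libraries 25.7, 26.3 and 27.5), and the pseudogene *Gm4782* 5 regions (60.6 ± 0.803 and 108 ± 6.59). *Gm16242* held 4 regions (8.42 ± 0.692 and 26.8 ± 3.28), as did *Ehbp1* (9.56 ± 1.21 and 40.6 ± 1.496). For the last place *Ehbp1* was tied, at 4 regions and 5 windows, with *Oacyl* (means of 46.9 and 87.2 RPKM) and *Zfhx3* (24.0 ± 0.713 and 50.5 ± 2.06). *Gm20388*, annotated over 4435 kb across many other genes, held 6. Single-copy windows were 1 of 13 in *Gm42031*, 0 of 14 in *B230303A05Rik*, 1 of 7 in *Ulk4*, 0 of 5 in *Pik3c2a* and 0 of 9 in *Gm4782*. They were 2 of 7 in *Gm16242* and 1 of 5 in *Ehbp1*, so the values of these genes are largely those of repeated sequence. In *Zfhx3* 5 of 5 and in *Gm20388* 9 of 10 were single copy.

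Shares of known sequence motifs in members lay above or below those of other windows depending on which windows they were set beside, and a match is a description and not a binding site. Each motif was sought on both strands within the window. Shares are given for members, then for all reference windows with 1 to 5 CpG sites. The third share is for the 4215 other listed windows of the same chromosomes and CpG range, of which 3695 were lower in KO. The reference and other listed windows were of every copy number, also where single-copy members are set beside them. The Zic motif CAGCAGG was in 5.70% of members, 2.35% of reference windows and 2.44% of other listed windows, and in 4.44% of single-copy members. Of the 50 members with it, 19 belonged to the largest set with shared sequence and 7 lay in *Ulk4*. Among silent-WT windows that were higher in KO the share was 4.80%, and 2.60% among the single-copy ones. The Esrrb motif AAGGTCA was in 3.19% (28 members), 1.81% and 0.664%. Of these 28, 21 belonged to the single set of 25 windows with shared sequence, and among single-copy members the share was 1.78%. Over all members, these were the motifs with a higher share than in both other sets, which for the Esrrb motif did not hold over single-copy members.

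The Oct motif ATGCNAAT was in 4 members (0.456%), 1.41% of reference windows and 0.498% of other listed windows, and the E-box CACGTG in 1.37%, 1.98% and 3.16%. Among single-copy members the shares were 0.592% and 1.48%, so the Oct share was then above that of the other listed windows. The Sox motif ACAAAG was in 6.04% of members, 8.68% of reference windows and 3.84% of other listed windows. The AP-1 motif TGANTCA was in 1.82%, 2.86% and 1.23%. The shares of the Sox and AP-1 motifs in members were thus below the reference and above the other listed windows, also in single-copy members (7.40% and 2.07%). The opposite order held over all members for the Klf motif CACCC (18.9%, 17.4% and 25.03%), for the CA repeat CACACACA (3.42%, 3.10% and 6.29%) and for the polypurine run AGAGAGAG (2.51%, 1.64% and 2.87%). Among single-copy members the share of the CA repeat was 3.55%. Those of the Klf motif (27.2%) and the polypurine run (2.96%) were above both other sets, which held every copy number. The polypurine share was only just above that of the other listed windows.

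Members touched single genes of several developmental pathways, and the counts are too small to compare with the share over all genes. Of 18150 protein-coding genes on these chromosomes, 170 (0.937%) held a member in the body or within 5 kb, and they were long, with a median of 83.4 kb against 16.8 kb for all. Among pluripotency genes 2 of 28 did, among Wnt genes 1 of 52, FGF and MAPK genes 1 of 38, TGF-beta, BMP and Nodal genes 1 of 36, developmental transcription factors 1 of 71, and genes of synaptic adhesion and axon guidance 1 of 57. There were none among 24 genes of the DNA methylation machinery, 30 of Polycomb and PR-DUB, 15 of the RNA m5C pathway, 44 imprinted genes, 30 Hox genes, 25 germline genes and 19 genes of the 2-cell stage.

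*Zfp42*, which encodes the pluripotency marker REX1, had a member in an exon at chr8:43295901-43296000. WT libraries had 6.07, 7.53 and 3.91 RPKM there and KO libraries 29.1, 28.4 and 21.2, a ratio of 4.57. *Tcf7l1*, a repressor at Wnt target genes that is also in the pluripotency list, had an intronic member with 2.14 ± 0.651 RPKM in WT and 13.4 ± 3.09 in KO (SD, n = 2). *Bmp7*, a ligand of the BMP family, had an intronic member with 2.38 ± 0.315 and 14.5 ± 3.04 RPKM. *Spred2*, an inhibitor of Ras and MAPK signalling, had 3 intronic members with ratios from 5.18 to 6.997. *Sox5*, a transcription factor of the SoxD group, had 2 intronic members with ratios of 2.50 and 2.56, and *Tenm3*, an adhesion protein of the teneurin family, 3 intronic ones from 3.16 to 3.94. All these windows were single copy except 1 of *Spred2*.

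Knockdown of *Nsun2* in *Tet2*-KO cells was compared with siNC in the same cells. Of the 877 members, 9 (1.03%) were among the 244 windows listed for that comparison, and all 9 were called lower with siNsun2 by edgeR's quasi-likelihood test, beside 67.6% of listed windows called lower. The siNC libraries on one side of this comparison are those that chose the members for a high value, and the list was itself selected on these libraries, so the calls add nothing to the listing and the values are given as a description with no p. With TMM factors over the listed windows, which shifted the median log2 fold change of all 244 by 0.59, 2 of the 9 were called and the window on chromosome 17 changed sign.

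The 9 windows were strong in every group, and 8 of them were repeated sequence. The siNsun2 libraries were kept as 3 samples, since all pairs of them were alike (chi-square per degree of freedom 0.827 to 0.850 over the listed windows), so that their SD may be that of sampling alone. At chr11:31598801-31598900, outside genes, the WT siNC libraries had 126, 130 and 119 RPKM, the *Tet2*-KO siNC libraries 242, 227 and 219, and the *Tet2*-KO siNsun2 libraries 138, 129 and 140. The siNsun2 libraries were all below the siNC libraries of the same cells and overlapped the WT range. The fitted log2 fold change was −0.75 ± 0.0737 (SE), and −0.17 with TMM factors. The fits took every library as a separate sample, also those averaged for the means, so the SEs may be too small. The neighbouring window chr11:31598601-31598700 had the lowest log2 fold change of the 9, −0.88 ± 0.103 (−0.29 with TMM factors), from 127 ± 10.5 RPKM (SD, n = 2) to 66.7 ± 2.46 (SD, n = 3), beside 71.8 ± 7.04 in WT. In the single-copy *Evpl* window siNsun2 libraries had 50.4, 64.3 and 58.1 RPKM, against 103, 112 and 103 with siNC, a log2 fold change of −0.87 ± 0.111 (−0.28 with TMM factors). The last 2 windows were those called with TMM factors.

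In the tandem repeat of *Mctp1* the window chr13:76514301-76514400 had 234 ± 16.6 RPKM with siNC, 144 ± 6.56 with siNsun2 and 115 ± 9.11 in WT siNC. The window chr17:54760101-54760200 had 296 ± 1.21, 202 ± 6.51 and 148 ± 9.81 RPKM. The 2 windows at chr8:34246001-34246200 had 211 and 222 RPKM with siNC, 135 and 142 with siNsun2 and 142 and 152 in WT. Over the 9 windows the *Tet2*-KO siNsun2 range overlapped the WT siNC range at 5 and lay above it at 4. For *Nsun2* knockdown in WT cells, 0 of the 31 listed windows were members, and no member could be compared there.

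PSPC1 is an RNA-binding protein that associates with TET2, and *Pspc1*-KO cells were set against WT cells in libraries that took no part in the choice of members. That list holds only windows past the study's threshold in the same libraries, so a refit adds nothing to the listing and the values are given with no p. Of the 877 members, 3 (0.342%) were among the 307 windows listed for *Pspc1* KO, and all 3 were called higher, beside 18.9% of listed windows called higher (edgeR's quasi-likelihood test with Benjamini-Hochberg adjustment over the 307 windows). Replicates 1 and 2 of these WT cells were close to the sampling noise (chi-square per degree of freedom 1.10, against 2.62 and 4.62 for the other pairs) and were counted as 1 sample. The *Pspc1*-KO libraries were kept as 3 samples, since no pair of them stood apart from the others (0.823 to 1.05). The members were 2 windows of *Bcat1*, the cytosolic aminotransferase of branched-chain amino acids, and 1 intronic window of *Zfhx3*, a transcription factor with zinc fingers and homeodomains.

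At chr6:145004401-145004500, in an exon of *Bcat1*, WT libraries of this experiment had 46.2, 50.6 and 56.5 RPKM and *Pspc1*-KO libraries 100.1, 106 and 101.1. The groups did not overlap, and the log2 fold change was 0.97 ± 0.0803 (SE), and 1.46 with TMM factors. Here too the fit took every library as a separate sample, also the averaged WT libraries, so the SEs may be too small. The inputs there had 2, 4 and 1 reads in WT and 0, 4 and 1 in *Pspc1* KO. In the *Tet2* experiment this window had 34.6 ± 2.33 RPKM in WT and 105 ± 6.81 in *Tet2* KO (SD, n = 2). At chr6:145004601-145004700, in an intron, *Pspc1*-KO libraries had 65.7 ± 5.76 RPKM (SD, n = 3) and WT libraries 32.3 ± 0.470 (SD, n = 2). The log2 fold change was 1.02 ± 0.102, and 1.51 with TMM factors. The window between them, which holds 7 CpG sites and so is no member, had a log2 fold change of 1.03 ± 0.0735.

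At chr8:108712201-108712300 in *Zfhx3*, 2344 bp from a start, WT libraries had 2.46, 3.31 and 2.51 RPKM and *Pspc1*-KO libraries 11.5, 9.60 and 9.98, a log2 fold change of 1.91 ± 0.190. In the *Tet2* experiment it had 4.79 ± 1.81 RPKM in WT and 25.1 ± 10.5 in KO. The inputs had 6, 6 and 1 reads in WT and 1, 1 and 2 in *Pspc1* KO. Of the listed windows that were no members, 3 lay within 1 kb of one: that of *Bcat1*, the window next to the *Zfhx3* member (log2 fold change 2.36 ± 0.228) and a window of *Gm4782* with 8 CpG sites (0.32 ± 0.0472). All 3 were higher in *Pspc1* KO.

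**Figure D5:**
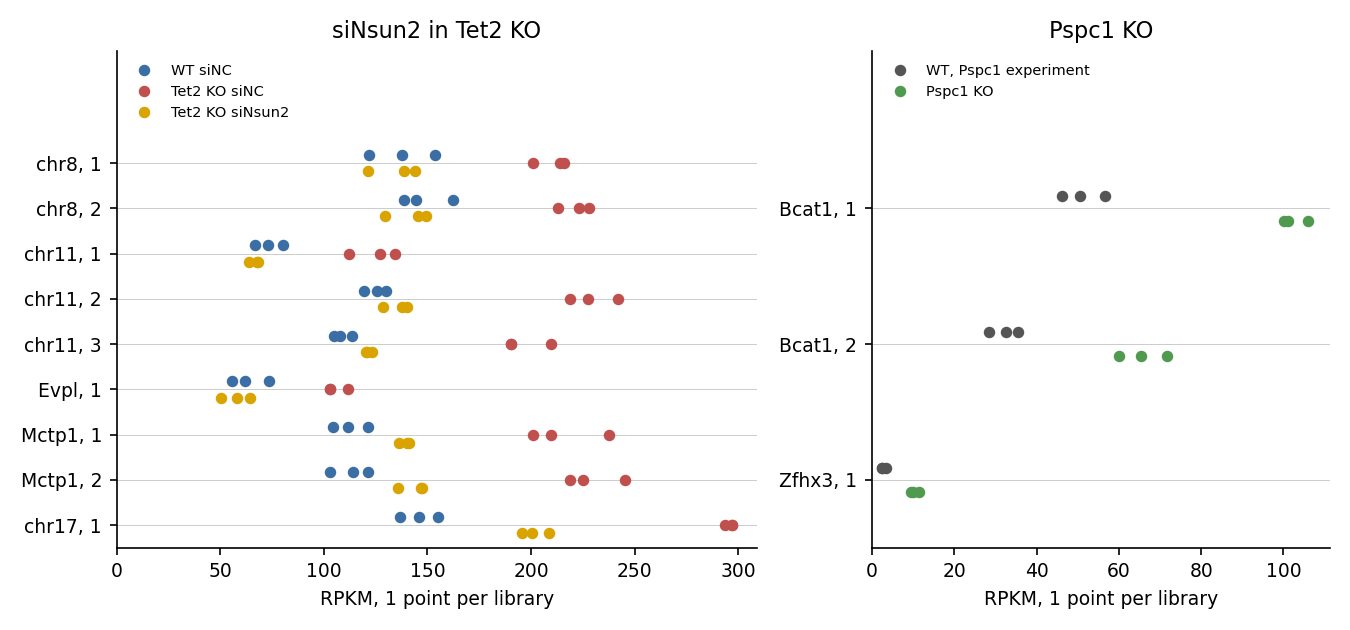
RPKM of each library at the 9 members listed for siNsun2 in *Tet2*-KO cells (left, with WT siNC in blue, *Tet2*-KO siNC in red and *Tet2*-KO siNsun2 in yellow) and at the 3 members listed for *Pspc1* KO (right, WT in grey and KO in green). Rows are named by gene, or by chromosome outside genes, and numbered along the chromosome; siNsun2 points lie left of all red points in the 9 rows, and *Pspc1*-KO points lie right of the WT points in the 3 rows.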

How the data were processed

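The authors trimmed reads with Trimmomatic 0.39, aligned them to mm10 with Bowtie2 2.4.1, which reports 1 position for a read that matches several, removed duplicates with Picard and compared groups with MEDIPS and edgeR in 100 bp windows. The deposited tables hold windows past their threshold only, so a genome-wide test was not repeated. The deposited counts are raw reads per window and library. RPKM columns come from the authors too, given to 2 decimals. So do the deposited relative methylation scores (a fraction, rms) and the CpG coupling factor, a score equal to the number of CpG sites (in 14454 of 14454 windows on named chromosomes). Columns of the authors' own fold changes and p-values were not used. The members and the gene lists were chosen with earlier results of these data known.

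Each library's total was worked back from its count and RPKM columns. edgeR 4.0.16 (quasi-likelihood, R 4.3.3) was fitted over all listed windows of each comparison, with Benjamini-Hochberg adjustment at 0.05, DESeq2 1.42.0 as an alternative, and tested on simulated data. Fits and calls took every IP library as a separate sample, also those averaged for the means. Replicates were compared by chi-square over windows with at least 20 reads. Sequence and copy number came from the GRCm38.p6 reference, the same build, and genes from GENCODE vM21. Named were the 8 longest single-copy regions, 6 exonic or near a start, the 10 genes with most regions, list genes, members listed in other comparisons and the 3 largest and smallest ratios. *Washc2* and *Mctp1*, and the sets of shared sequence and tandem repeats, were chosen after values were seen.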

Additional observations from a re-analysis of the deposited data

How the results depend on the processing

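Members were chosen to be higher in *Tet2* KO, so the sign of their median log2 difference (2.01) was fixed and only its size could vary. It was 1.88 with a pseudocount of 1 RPKM, 2.24 over single-copy members, 1.84 with at least 10 WT reads, 1.97 with 1 value per region, 1.89 for windows of up to 8 CpG sites and 1.57 where all 3 WT counts exceeded 3. Leaving out each library in turn gave 1.95 to 2.02, and counting the 3 libraries as 3 samples, chosen after seeing the data, gave 2.01. As a difference of relative methylation scores it was 0.107. With TMM factors it was 3.89 and with DESeq2 size factors 3.88, since both centre on the listed windows, most of which were lower in *Tet2* KO (TMM moved the median of all listed windows by 1.89). Same-numbered libraries did not deviate together (correlations of 0.033, −0.0068 and 0.0036), so the numbers were not taken as pairs. With the replicate block the median was 1.99. The 9 members under siNsun2 and the 3 under *Pspc1* KO were called as before, which their listing on the same libraries made likely in advance.

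With TMM factors 2 of the 9 members passed for siNsun2 in *Tet2*-KO cells, and the window on chromosome 17 had a log2 fold change of 0.038. Leaving out each library gave 9 to 9 calls there and 3 to 3 for *Pspc1* KO. These windows were listed as past the threshold in the same libraries, so the counts are no measure of stability. For siNsun2 in WT no member was listed, so there was nothing to call. The single-copy share of 38.5% became 44.2% with the middle 50 bases. The repeat-masked share of 48.3% became 17.8% over single-copy members and 53.3% per region, and the intronic share of 42.6% became 48.8% over single-copy members. Sharing 20 or 32 bases in place of 24, both chosen after seeing the data, put 58.6% or 53.1% of members into sets. Without *Catsperg1*, left out after seeing the data, the median ratio of members near starts was 4.97 in place of 6.51. Counting gene bodies only, 143 genes held a member in place of 170. The low WT counts limit the ratio of the shallowest members most.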
